A study of Brassica rapa subsp. pekinensis with 6 samples.

Results

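Calcium signalling genes were examined in the leaf transcriptome of Chinese cabbage (Brassica rapa subsp. pekinensis) at different ploidy levels. They were taken from the deposited gene table by the text of the best protein hit, which had to name a CBL-interacting kinase, a calcineurin B-like protein, a calcium-dependent protein kinase, calmodulin, a calcium-binding protein, a calcium-transporting ATPase, a cyclic nucleotide-gated channel or a glutamate receptor. This gave 170 of the 13225 listed genes. The choice among listed genes used the annotation text. All listed genes had already passed the authors' test, and earlier results of these data were known when the members were chosen.

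The doubled haploid group came from plants whose haploid genome had been doubled, and the autotetraploid group from plants that carry the genome of a single line in 4 copies. Both were raised from the same doubled haploid line, named FT, under the same conditions. Mature leaves below the lowest branch of the main stem were taken at bolting, and each group had 3 libraries, which the series describes as biological replicates. All plants therefore go back to 1 inbred genotype, and the sources used here do not say how many tetraploid lines were sampled.

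Plant cells answer touch, wounding, cold, salt and pathogens with brief rises of calcium in the cytosol. Channels such as cyclic nucleotide-gated channels and glutamate receptors let calcium in, and calcium-transporting ATPases pump it out again. Calmodulins, calmodulin-like (CML) proteins and calcineurin B-like proteins (CBLs) bind the ion and change the activity of their partners. CBLs act through CBL-interacting kinases (CIPKs), whereas calcium-dependent protein kinases (CDPKs) carry the sensor and the kinase in a single protein. In leaves these parts are known for roles in stomatal closure, potassium and sodium balance, and defence.

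Each gene was deposited as a pair of group means of normalised read counts, so most values below have no spread between libraries beside them. The deposited table held only genes with an adjusted p under 0.05 in the authors' test. These were 37.8% of 34980 tested genes, a number worked back from the deposited p-values and adjusted p-values. Every member passed the authors' test by construction, and calcium genes that did not pass were not analysed here. Library values of the groups therefore had little room to overlap. With both means under 100, they did not overlap in 99.1% of 2590 listed genes, and no share was counted at higher means. This applies wherever groups are described below as apart or without overlap, or every library as higher or lower. Rises and falls are given throughout from doubled haploid to autotetraploid leaves, and a gene name is that of the best protein hit. All 7 listed genes for the Rubisco small chain and 23 of 27 for chlorophyll a-b binding proteins, which mark leaf mesophyll, were higher in autotetraploid leaves, with summed means of 286419 against 100464 for the Rubisco genes. Genes with pollen or anther in the description were lower in 7 of 8 cases, with summed means of 999 in the autotetraploid against 1872 in the doubled haploid group. The corresponding sums for 24 root genes were 13994 and 14269, and no listed gene named petals. The part of tissue composition in the changes below was not tested, and in whole leaves fewer cells of a type and less RNA per cell cannot be told apart.

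Most listed calcium signalling genes were lower in autotetraploid leaves, among them sensors, kinases, pumps and calmodulin-binding proteins. Falls included single genes matching CBL1 (32.4-fold), CDPK32 (25.9-fold), CIPK2 (17.3-fold) and CML38 (10.9-fold). Rises included single genes matching CML47 (5.03-fold), CDPK1 (4.05-fold, from 97.5 to 395) and CIPK21 (3.79-fold). Each of these hits had a second listed gene. Those of CBL1, CDPK32 and CIPK2 fell less, and that of CDPK1, with more reads, fell from 2666 to 953. Of the 170 genes, 122 fell (71.8%) and 48 rose in the authors' deposited table, where 50.0% of all listed genes fell and 50.0% rose. At a change of at least 2-fold, 72 members fell and 13 rose. The corresponding shares of all listed genes were 23.0% and 16.6%. At least 4-fold changes were found in 34 members that fell and 6 that rose, beside 10.2% and 5.57% of all listed genes. The median log2 change of the members was -0.68, and that of all listed genes was 0.16. Together the members held 1.0% of the listed counts in autotetraploid leaves and 2.13% in doubled haploid leaves.

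**Figure D1:**
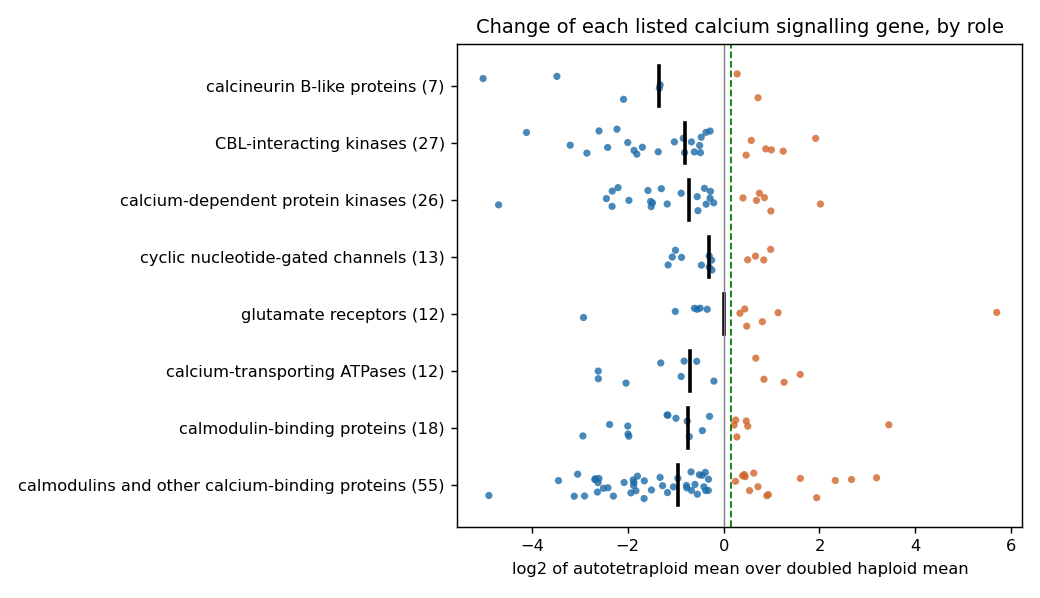
Log2 change of each of the 170 calcium signalling genes (horizontal axis, autotetraploid mean over doubled haploid mean), grouped by role with the number of genes in brackets. Blue points fell and orange points rose, black bars are medians of a role, and the dashed green line is the median of all listed genes (0.16). Medians of 7 roles lie below 0, and that of glutamate receptors lies at 0.00.

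The share of falls was also counted by level. Where the higher group reached a mean of 1000 or more, 55 of 70 members fell, while 44.1% of all listed genes at that level fell. Of those 70 genes, 40 fell and 2 rose at least 2-fold, beside 744 and 460 of the 3703 listed genes at that level. Between 100 and 1000, 49 of 74 members fell, beside 50.4% of all listed genes. Under a mean of 100, 18 of 26 fell, beside 57.3% of all listed genes. At that level 2090 of the 2590 listed genes differed at least 2-fold between the groups.

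**Figure D2:**
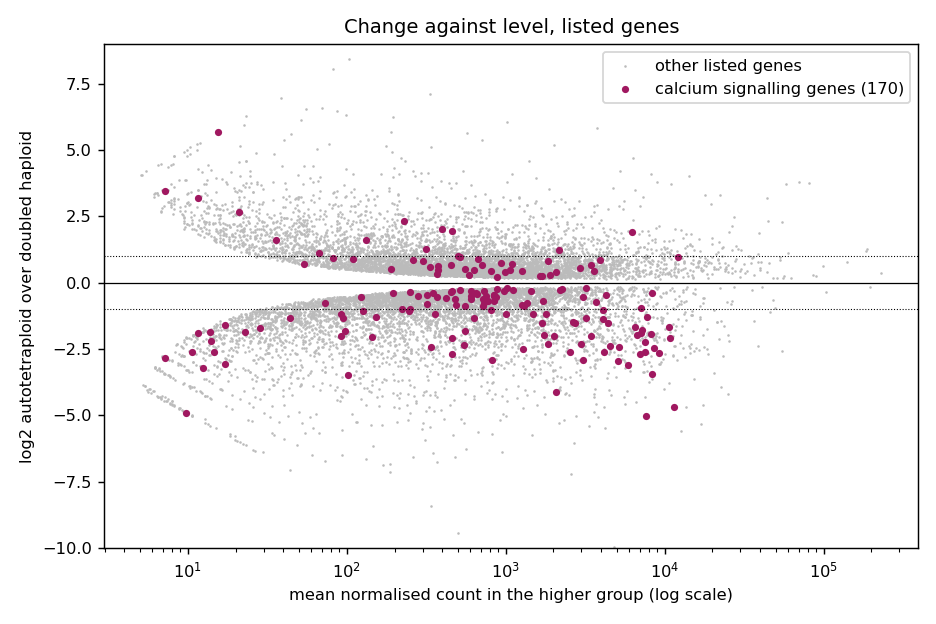
Log2 change (vertical axis) against the mean normalised count in the higher group (horizontal axis, log scale) for listed genes above 0 in both groups, with the 170 calcium signalling genes in purple and dotted lines at a 2-fold change. At means of at least 1000, 55 of the 70 purple points lie below 0.

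The calcium sensors fall into calmodulins, CML proteins and other calcium-binding proteins. The 13 listed genes with calmodulin or a calmodulin-related protein as best hit were split into 6 rises and 7 falls, with a median log2 change of -0.37. The falls include genes whose best hit was a calmodulin of mouse (evm.TU.BraA09001754) or of Prorocentrum minimum (evm.TU.BraA03004498). Whether these encode true calmodulins was not examined. CML genes fell in 24 of 31 cases, with a median of -1.33, and 18 of them fell at least 2-fold. The difference between these kinds of sensor was not tested. Genes named below were taken by a rule on the size and p of the change in each role, and others were added after their values were seen. A further 11 genes encode other calcium-binding proteins, of which 10 fell.

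Among CML genes whose higher mean reached 20, the largest fall was that of a gene with CML38, known in Arabidopsis from wounding and low oxygen, as its hit (evm.TU.BraA07003853). Its deposited mean of 763 in autotetraploid leaves, against 8311 in doubled haploid ones, was 10.9-fold lower, with an adjusted p of 1.59e-290 in the authors' deposited table. A second gene with this hit (evm.TU.BraA07002812) could be followed library by library. Its normalised counts were 54.3, 79.7 and 83.1 in the autotetraploid libraries and 465, 441 and 481 in the doubled haploid libraries. All 3 autotetraploid libraries lay far below all 3 doubled haploid ones, with means of 72.4 ± 15.7 and 462 ± 19.98 (SD, n = 3 each).

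The CML49 gene (evm.TU.BraA01004362) shared the smallest adjusted p among falls of calcium-binding proteins, listed as 0 in the authors' deposited table, with a PBP1 gene described below. Its mean fell from 9237 to 1489. Genes matching CML37, CML40 and CML24, the last known in Arabidopsis as the touch-induced TCH2, were named after their values were seen. CML37 (evm.TU.BraA09005871) fell from 5131 to 964 and CML40 (evm.TU.BraA03003221) from 2547 to 419.5 in the deposited means. CML24 (evm.TU.BraA04001352) fell from 10644 to 3381. The gene with the preceding identifier number (evm.TU.BraA04001351), whose best hit was calmodulin-4 of Arabidopsis, fell too, with 18.8, 32.3 and 31.3 in autotetraploid against 87.8, 91.5 and 113 in doubled haploid libraries. All 3 genes matching CML27 fell, from 7231 to 2079 (evm.TU.BraA08003300), from 1839 to 373 (evm.TU.BraA06001343) and from 1283 to 225 (evm.TU.BraA06001339). Both genes matching CML35 fell as well, by 3.16-fold (evm.TU.BraA04002963) and 2.84-fold (evm.TU.BraA05004252). CML43 (evm.TU.BraA06000292) held 45.4, 60.5 and 84.2 in autotetraploid against 152, 158 and 149 in doubled haploid libraries, so the groups stayed apart although the autotetraploid libraries were uneven.

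Some CML genes rose. CML47 was the best hit of 2 genes, and both rose, by 5.03-fold (evm.TU.BraA06003959, from 45.4 to 228, adjusted p = 3.42e-34 in the authors' deposited table) and by 3.84-fold (evm.TU.BraA06000915, from 120.5 to 463). The doubled haploid libraries of the first of them held 46.6, 47.2 and 42.5, a narrow range far under the autotetraploid mean. The largest rise of a calcium-binding protein gene with a mean of at least 20 was that of a gene matching CML45 (evm.TU.BraA04001475). Its autotetraploid libraries held 23.7, 12.1 and 27.0 and its doubled haploid libraries 0.896, 4.62 and 4.36. The groups did not overlap, but the lower mean of 3.29 rested on 10 reads over the group. A second CML45 gene (evm.TU.BraA04001168) also rose, with 27.7, 38.3 and 41.0 against 13.4, 12.0 and 9.81. CML25 (evm.TU.BraA09003501), known in Arabidopsis pollen and root hairs, rose less than 2-fold, with 133, 96.8 and 100.4 against 59.1, 60.1 and 57.8. In these CML45 and CML25 genes every autotetraploid library was above every doubled haploid library. CML4 (evm.TU.BraA09002303), named after its values were seen, had 11.9, 12.1 and 10.8 in autotetraploid against 1.79, 0.925 and 1.09 in doubled haploid libraries. CML3 (evm.TU.BraA03003553), also named afterwards, held 0.988, 0 and 0 in autotetraploid and 8.96, 7.40 and 13.1 in doubled haploid libraries. It rested on 1 autotetraploid read, so that the 28.2-fold lower ratio of reads had a 95% exact counting interval of 4.69 to 1151.

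Other calcium-binding proteins included PBP1, which binds the auxin transport kinase PINOID in Arabidopsis, and KIC, which binds a calmodulin-regulated kinesin there. All 3 genes matching PBP1 fell, from 5924 to 683 (evm.TU.BraA01001897), from 7009.7 to 1087 (evm.TU.BraA10001473) and from 4177 to 679.8 (evm.TU.BraA02001856) in the deposited means. All 4 KIC genes fell too, with log2 changes between -3.05 and -0.55. Of these, evm.TU.BraA05004350 held 1.98, 7.06 and 9.72 in autotetraploid against 25.1, 24.96 and 18.5 in doubled haploid libraries. A pair of genes matching a fission yeast calcium-binding protein fell 1.24-fold (evm.TU.BraA06001090) and 1.25-fold (evm.TU.BraA07001545).

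Of 7 listed CBL genes, 5 fell and 2 rose, and the 5 that fell did so at least 2-fold. The largest fall of the whole list was that of a gene matching CBL1, a sensor at the plasma membrane that works with CIPK23 on the potassium channel AKT1 in Arabidopsis (evm.TU.BraA01001035). Its mean fell 32.4-fold, from 7680.1 to 237, with an adjusted p listed as 0 in the authors' deposited table. A second CBL1 gene (evm.TU.BraA03005078) held 103, 114 and 106 in the autotetraploid and 470.5, 442 and 459 in the doubled haploid libraries. Its group means, 107 ± 5.78 and 457 ± 14.4 (SD, n = 3 each), were 4.25-fold apart.

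CBL9, which shares the AKT1 role with CBL1 in Arabidopsis, was the best hit of 2 genes that fell by almost the same log2 value, -1.32 and -1.34. The first (evm.TU.BraA02003214) held 31.6, 52.4 and 30.2 in autotetraploid and 99.5, 96.2 and 90.5 in doubled haploid libraries. Libraries of the second (evm.TU.BraA09005501) were more uneven, with 18.8, 28.2 and 5.40 in autotetraploid and 35.8, 49.0 and 48.0 in doubled haploid leaves. The groups stayed apart in both genes. CBL5 (evm.TU.BraA10002224) fell from 117, 87.8 and 100.3 in the doubled haploid libraries to 14.8, 5.04 and 7.56 in the autotetraploid ones.

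Both CBL genes that rose did so by less than 2-fold. CBL10, known in Arabidopsis shoots for recruiting the salt-tolerance kinase SOS2 (evm.TU.BraA08001324), held 51.4, 48.4 and 62.6 in autotetraploid and 37.6, 24.04 and 37.1 in doubled haploid libraries. These groups lay close together without overlap, and the adjusted p was 0.0412 in the authors' deposited table. CBL2, a vacuolar membrane sensor in Arabidopsis (evm.TU.BraA02000950), rose 1.22-fold from 482 to 586, with doubled haploid libraries at 486, 476 and 485 and an adjusted p of 0.0153 in the authors' deposited table.

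CIPK genes fell in 21 of 27 cases, 12 of them at least 2-fold, with a median log2 change of -0.81. The largest fall was that of CIPK2 (evm.TU.BraA10001014), 17.3-fold, from a doubled haploid mean of 2078 to an autotetraploid mean of 120.1. The autotetraploid libraries held 111, 148 and 101.5, so all were low, with an SD of 24.8 (n = 3). The gene with the next identifier number (evm.TU.BraA10001013) also had CIPK2 as best hit and fell less, from 776 to 487. Whether the pair share reads was not examined.

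CIPK11, known in Arabidopsis for holding back the plasma membrane proton pump, was the best hit of 2 genes that fell. One of them (evm.TU.BraA03001700) held 72.1, 44.4 and 73.4 in the autotetraploid and 343, 331 and 342 in the doubled haploid libraries. Both genes matching CIPK9, which acts in potassium balance in Arabidopsis, fell, from 7478 to 1599 (evm.TU.BraA09000048) and from 4071 to 1580.3 (evm.TU.BraA10002782) in the deposited means. All 4 genes matching CIPK17 fell and were weakly expressed, with means of at most 28.6. They form 2 pairs with consecutive identifier numbers, and whether these share reads was not examined. The pair on code A06 held 14.8, 3.02 and 8.64 against 26.9, 30.5 and 28.3 (evm.TU.BraA06002201) and 3.95, 2.02 and 5.40 against 17.0, 9.25 and 15.3 (evm.TU.BraA06002202), so the groups stayed apart in both. In the pair on code A08, evm.TU.BraA08000525 rested on 3 autotetraploid reads, and its 7.21-fold lower ratio of reads had a 95% exact counting interval of 2.18 to 37.5. All 4 genes matching CIPK6 fell as well, by log2 values between -0.84 and -0.28. The largest of these falls (evm.TU.BraA08001697, from 1259 to 703) had an adjusted p of 0.00696 in the authors' deposited table. Kinases of the CIPK14 and CIPK15 hits, also with consecutive numbers, fell from 2008 to 502 (evm.TU.BraA02000016) and from 282 to 199 (evm.TU.BraA02000017).

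Rises among CIPK genes numbered 6. The largest was that of CIPK21, known from osmotic and salt responses in Arabidopsis (evm.TU.BraA03001288). Its mean rose 3.79-fold, from 1646 to 6229, with an adjusted p of 1.12e-171 in the authors' deposited table. A second CIPK21 gene (evm.TU.BraA10001775) rose 1.38-fold. Both genes matching CIPK1, a kinase of osmotic and abscisic acid responses in Arabidopsis, rose, by 2.37-fold (evm.TU.BraA03004054) and 1.84-fold (evm.TU.BraA05002210). The doubled haploid libraries of the latter held 397, 340 and 354, all far under its autotetraploid mean of 669. CIPK3 (evm.TU.BraA04001956), a partner of CBL9 in abscisic acid responses of Arabidopsis, rose 1.99-fold to 499 from doubled haploid libraries of 225, 251 and 274.

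CDPK genes fell in 20 of 26 cases, 12 of them at least 2-fold, with a median log2 change of -0.72. The largest fall was that of CDPK32, which phosphorylates the abscisic acid factor ABF4 in Arabidopsis (evm.TU.BraA09002777). Its mean fell 25.9-fold, from 11471 to 443, with an adjusted p listed as 0 in the authors' deposited table. A second CDPK32 gene (evm.TU.BraA07002322) fell 2.85-fold. Both genes matching CDPK28, which limits immune signalling in Arabidopsis, fell, by 5.01-fold (evm.TU.BraA07001765) and 2.87-fold (evm.TU.BraA09006844). CDPK5, which phosphorylates the oxidase RBOHD in Arabidopsis (evm.TU.BraA01000333), fell from 7735 to 3142. CDPK9 (evm.TU.BraA03004201) fell from 8528 to 1566. All 3 genes matching CDPK10, a kinase of drought responses in Arabidopsis guard cells, fell. One of them (evm.TU.BraA09001005) held 113, 119 and 96.1 in the autotetraploid libraries and had a doubled haploid mean of 548. Another (evm.TU.BraA06001269) held 10.9, 3.02 and 3.24 against 16.1, 11.1 and 23.98, groups whose nearest values were 10.9 and 11.1.

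Among the 6 CDPK genes that rose, only a gene matching CDPK1 (evm.TU.BraA03000189) rose at least 2-fold. Its autotetraploid mean was 395, and its doubled haploid libraries held 94.1, 91.5 and 107 (mean 97.5 ± 8.19, SD, n = 3). The rise was 4.05-fold with an adjusted p of 7.43e-45 in the authors' deposited table. Another CDPK1 gene moved the other way, falling from 2666 to 953 (evm.TU.BraA10001158).

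Among the channels, cyclic nucleotide-gated channel (CNGC) genes fell in 9 of 13 cases with a median log2 change of -0.30, and 3 of them fell and 0 rose at least 2-fold. CNGC16, a channel linked to heat tolerance of Arabidopsis pollen (evm.TU.BraA06000853), had the largest fall. Its libraries held 28.6, 38.3 and 56.1 in autotetraploid and 86.0, 90.6 and 98.1 in doubled haploid leaves. CNGC19 (evm.TU.BraA01003991), known in Arabidopsis for calcium signals after herbivory, held 115, 126 and 109 against 251, 237 and 247. CNGC12 (evm.TU.BraA07002363) held 95.8, 121 and 119 against 217, 239 and 217. In each of these 3 genes every autotetraploid library was below every doubled haploid library, but genes that passed the authors' test can hardly overlap. No share of all listed genes was counted at the level of CNGC19 and CNGC12. CNGC1 (evm.TU.BraA02001746) had the smallest adjusted p among the falls, 1.06e-24 in the authors' deposited table, and fell from 1313 to 714.

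CNGC20 (evm.TU.BraA03004068) rose from 6149 to 12141, 1.97-fold, the largest rise of a CNGC gene, with an adjusted p of 8.68e-55 in the authors' deposited table. CNGC2 and CNGC4, which form an immune calcium channel together in Arabidopsis, moved in opposite directions. CNGC2 (evm.TU.BraA10000384) rose from 1032 to 1845, and CNGC4 (evm.TU.BraA10001453) fell slightly, from 2262 to 1902.

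Glutamate receptor-like (GLR) genes were evenly split, with 6 rises and 6 falls. The 5 genes of clade 3, which holds the wound-signal channel GLR3.3 of Arabidopsis, changed by log2 values between -0.55 and 0.44. Genes matching GLR2.8, a receptor linked to calcium entry in pattern-triggered immunity in Arabidopsis together with GLR2.7, went both ways. The largest GLR fall was that of a GLR2.8 gene (evm.TU.BraA05000671), with 124, 102 and 100.4 in autotetraploid and 837, 779 and 863 in doubled haploid libraries. The fall was 7.59-fold, with an adjusted p of 1.66e-129 in the authors' deposited table.

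A run of 4 listed GLR2.7 and GLR2.8 genes with nearby identifier numbers on code A04 did not move together. Of these, evm.TU.BraA04002115 rose from 173 to 303 and evm.TU.BraA04002120 from 758 to 1059, while evm.TU.BraA04002117 fell from 718 to 470.3. The gene with the largest GLR rise at a mean of at least 20 belonged to this run (evm.TU.BraA04002116). Its libraries held 81.0, 58.5 and 60.5 in autotetraploid and 44.8, 22.2 and 23.98 in doubled haploid leaves, which kept the groups apart. GLR3.1 (evm.TU.BraA07000540), which acts in stomatal closure in Arabidopsis, held 86.9, 77.6 and 88.5 against 122, 116 and 134 and so fell without overlap. A GLR1.1 gene with fewer reads, named after its values were seen (evm.TU.BraA10001232), held 5.93, 21.2 and 19.4 against 0.896, 0 and 0. With 1 doubled haploid read, its read ratio of 47.8 had a 95% exact counting interval of 8.16 to 1931.

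Genes for calcium-transporting ATPases fell in 8 of 12 cases, with a median log2 change of -0.69. The largest fall was that of ACA1, annotated as chloroplastic (evm.TU.BraA08002863), from 7574 to 1236, 6.13-fold, with an adjusted p of 1.08e-302 in the authors' deposited table. ACA4, a pump of the vacuolar membrane in Arabidopsis (evm.TU.BraA04002954), rose from 2204 to 3947, with an adjusted p of 6.59e-34 in the authors' deposited table. The largest ATPase rise was that of a gene matching ACA9, a pump needed for pollen tube growth in Arabidopsis (evm.TU.BraA01002780). Its libraries held 124, 146 and 124 in autotetraploid and 48.4, 47.2 and 34.9 in doubled haploid leaves. A second ACA9 gene with few reads (evm.TU.BraA05001446) fell, with 0.988, 1.01 and 3.24 against 8.96, 11.1 and 12.0. ACA13 (evm.TU.BraA01002528) fell from 130, 143 and 158 in the doubled haploid libraries to 28.6, 48.4 and 28.1 in the autotetraploid ones.

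Among calmodulin-binding targets, 12 of 18 genes fell, with a median log2 change of -0.74. The largest fall was that of CBP60A, which restrains immunity in Arabidopsis (evm.TU.BraA06003730), from 5097 to 666, 7.65-fold, with an adjusted p listed as 0 in the authors' deposited table. Of 3 genes matching CBP60G, which promotes salicylic acid synthesis in Arabidopsis, 2 fell, from 3444 to 861 (evm.TU.BraA06002951) and from 1798 to 803 (evm.TU.BraA09001838). The third rose on few reads (evm.TU.BraA02004047), with 7.90, 4.03 and 9.72 in autotetraploid against 0.896, 0 and 1.09 in doubled haploid libraries. It had 2 doubled haploid reads, and the read ratio of 11.2 had a 95% exact counting interval of 2.73 to 98.2. CBP60F (evm.TU.BraA01000733) held 22.7, 27.2 and 19.4 against 84.2, 94.3 and 98.1, with every autotetraploid library far below the doubled haploid ones. All 3 genes matching calmodulin-binding protein 25 fell, from 6680 to 1696 (evm.TU.BraA04000329), from 4546 to 873 (evm.TU.BraA09002839) and from 732 to 433 (evm.TU.BraA04002982).

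Calmodulin-binding transcription activators (CAMTAs) showed 3 rises and 3 falls, and 0 of the 6 genes passed 2-fold. CAMTA3, which restrains salicylic acid defence in Arabidopsis (evm.TU.BraA04001606), fell from 3687 to 2245. One of 2 CAMTA4 genes (evm.TU.BraA07003355) fell 1.99-fold, with 142, 129 and 106 against 267, 223 and 262. CAMTA6 (evm.TU.BraA05002249) had the smallest adjusted p among rises of calmodulin-binding proteins, 8.25e-05 in the authors' deposited table. It rose from 458 to 635, and its doubled haploid libraries held 500.1, 475 and 399. CBP60B (evm.TU.BraA02001048) rose 1.42-fold, from 133 to 189.

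Reads per library could be worked back from the group means for the autotetraploid group in 42 members and for the doubled haploid group in 89 (the processing notes give the method). Values of all 6 libraries were available for 40 members. For members with both means under 100, the groups did not overlap in 26 of 26, as in 99.1% of all 2590 genes at that level, all of which had already passed the authors' test. In limma's test on these library values, 18 members fell and 8 rose at an adjusted p under 0.05, but so many genes passed (100% of the 2590) that the calls add nothing about the members. For CNGC16 limma gave a log2 change of -1.19 with a standard error of 0.22. In GLR2.7 (evm.TU.BraA04002116) the log2 change was 1.17 with a standard error of 0.26, and in CBL10 it was 0.72 with a standard error of 0.21. The median coefficient of variation of the 89 members was 7.59% among doubled haploid libraries. For the 26 weakly expressed members it was 40.01% among autotetraploid and 21.1% among doubled haploid libraries, while for all 2590 genes at that level it was 22.01% and 19.8%. These medians were not matched for the mean within a group. Of the 26 members 18 fell, to autotetraploid means as low as 0.329 (evm.TU.BraA03003553), where counting error is large. Whether members vary more between autotetraploid libraries was not tested. No library was always the highest or lowest of its group: autotetraploid library C was highest in 16 of the 40 members and doubled haploid library A in 18.

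**Figure D3:**
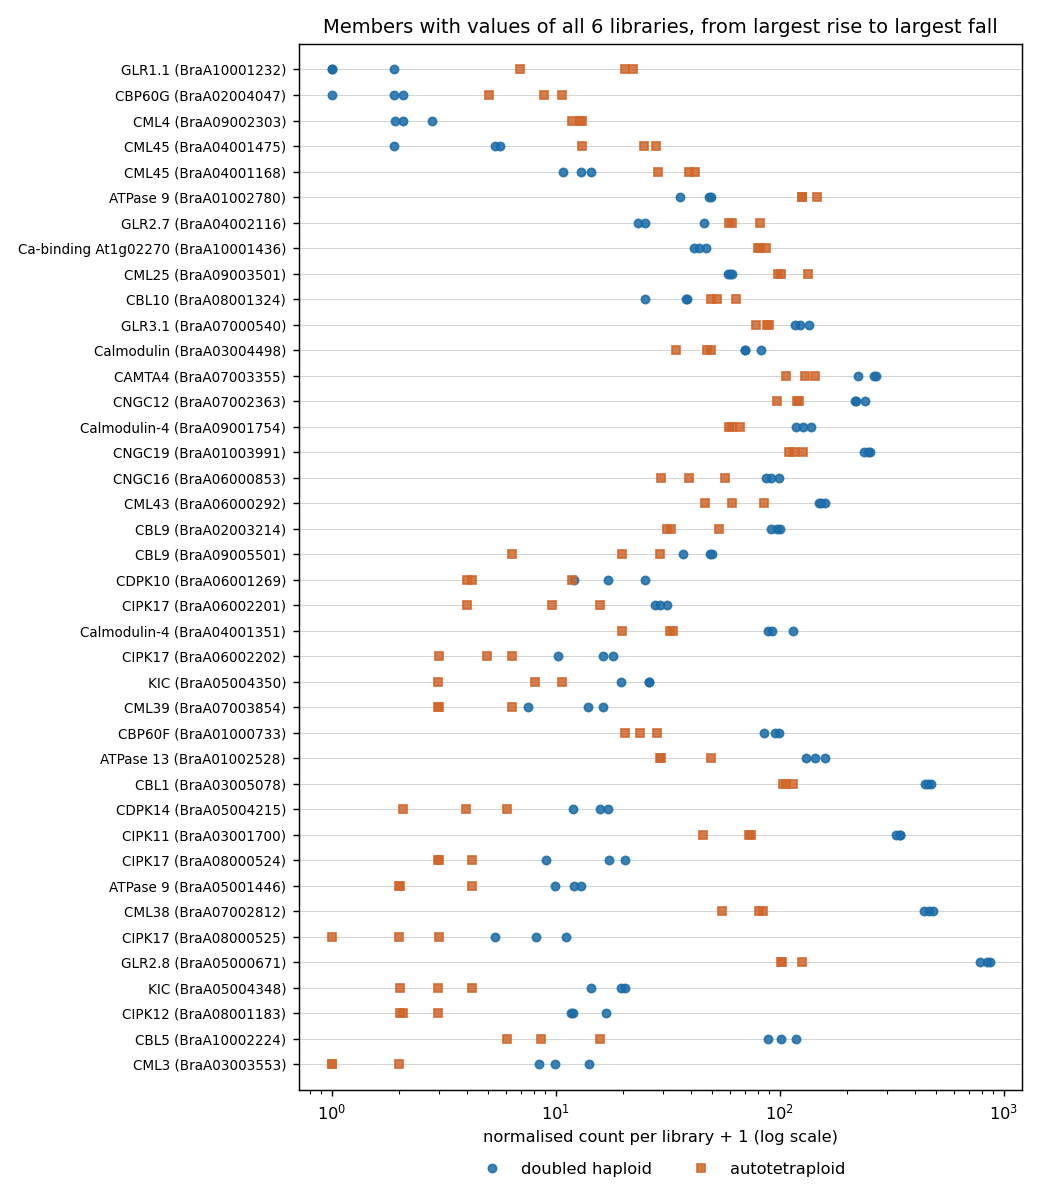
Normalised count per library plus 1 (horizontal axis, log scale) for the 40 members with values of all 6 libraries, ordered from the largest rise to the largest fall. Blue circles are the 3 doubled haploid and orange squares the 3 autotetraploid libraries. The groups do not overlap in any of the 40 genes, of which 10 rose and 30 fell. All listed genes had passed the authors' test, so little overlap can occur. For both means under 100, which holds for 26 of the members shown, the groups were apart in 99.1% of all 2590 listed genes. No such share was counted at higher means.

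Brassica rapa carries many genes in several copies, and members with the same best hit were compared with each other. The 170 members had 115 different best hits, and 38 hits were shared by at least 2 members. In 21 of these 38 hits all members fell, in 5 all rose, and in 12 the members moved in different directions. As 71.8% of all members fell, members with different hits often moved the same way too. Whether members with the same hit did so more often was not tested. Among the 12 hits with 3 or more members, all members fell in 7, all rose in 1 and directions were mixed in 4. The hit whose members all rose was a calmodulin of pepper, with 4 genes that rose by log2 values between 0.45 and 0.72. Of the 4 genes matching calmodulin-5, 3 fell, by up to 4.22-fold (evm.TU.BraA04000322, from 10753 to 2550), and 1 rose (evm.TU.BraA09002854, from 940.1 to 1268). The widest gap lay among the CML45 genes, whose log2 changes ran from -2.90 (evm.TU.BraA02003805, from 3059 to 409) to 2.67. Gene sequences were not used, so reads shared between near-identical copies were not examined.

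**Figure D4:**
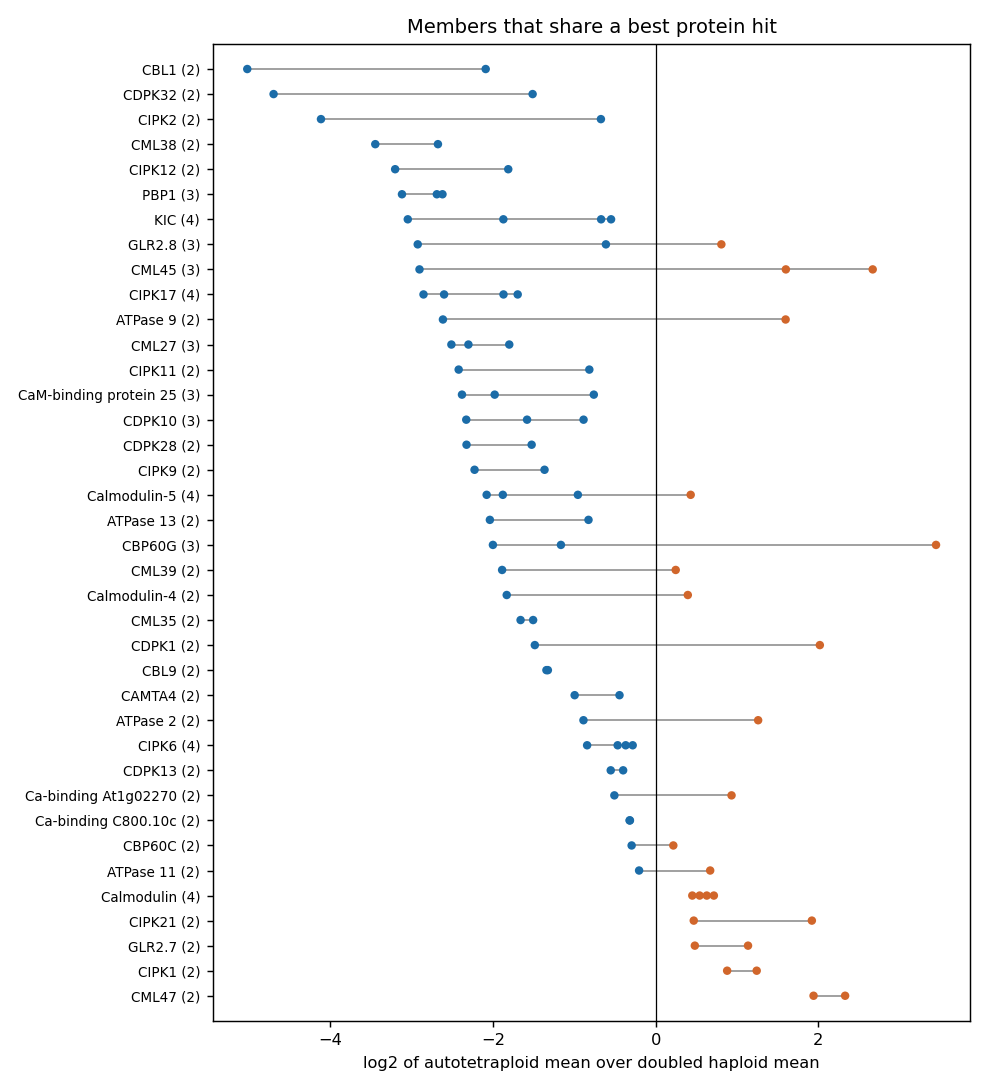
Log2 change (horizontal axis) of members that share a best protein hit, 1 line per hit with the number of genes in brackets, joined by a grey bar. Blue points fell and orange points rose. In 12 of the 38 hits the bar crosses 0, most widely for CML45.

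Some members lie next to each other by identifier number. In 15 pairs the numbers on the same chromosome code differed by at most 3, and both genes moved the same way in 11 of them. Of these pairs, 6 also shared a best hit. As 71.8% of all members fell, members far apart often moved the same way too, and a link with position was not tested. The code A01, whose listed genes were lower in 72.1% of cases, held 16 members, and 15 of them fell. Code A06 had 17 falls among 20 members beside 47.8% of its listed genes, and A07 had 12 among 14 beside 49.3%. Code A03 had 12 falls among 21 members beside 44.6%, and A10 had 9 among 16 beside 48.3%. Differences between codes were not tested. Without A01 genes, 107 members fell and 47 rose.

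Other genes of calcium signalling, taken from a list of descriptions outside the rule, were lower in 49 of 76 cases and higher in 27, with a median log2 change of -0.61. Of all listed genes, 50.0% were lower. The 76 genes had passed the same authors' test, and their list was drawn up with earlier results of these data known. Among the 76 genes, 28 fell and 12 rose at least 2-fold, beside 23.0% and 16.6% of all listed genes. The smallest adjusted p among falls was listed as 0 in the authors' deposited table, for 2 genes. One matched RBOHD, the oxidase that makes reactive oxygen in response to calcium (evm.TU.BraA06002707), and fell from 8235 to 1203. The other matched the CSC1-like protein ERD4 (evm.TU.BraA08002720) and fell from 5423 to 745. The smallest among rises was 8.93e-113 in the authors' deposited table, for calreticulin-3, a calcium-binding chaperone of the endoplasmic reticulum (evm.TU.BraA09000392). It rose from 1205 to 3741, and all 3 listed calreticulin genes rose.

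Families within this list were counted separately and not tested against each other. They are small, and 50.0% of all listed genes fell. All 9 CSC1-like genes fell, a family that holds osmotically gated calcium channels. Genes for phosphoinositide phospholipase C fell in 6 of 7 cases, synaptotagmins in 6 of 7 and mitochondrial calcium uniporter proteins in 5 of 6. Copine genes of the BONZAI kind fell in 3 of 4 cases and genes for respiratory burst oxidases in 4 of 6. Some genes in these counts had few reads. Uniporter genes fell to means of 0.659 (evm.TU.BraA06000459) and 0.329 (evm.TU.BraA06002391), and a synaptotagmin-4 gene to 3.48 (evm.TU.BraA02000406). An oxidase gene matching RBOHC rose from 1.03 to 7.85 (evm.TU.BraA02003019). The calmodulin-binding IQ-DOMAIN genes were split into 6 rises and 5 falls, CDPK-related kinases into 4 and 5, and vacuolar cation/proton exchangers into 3 and 3. Cation/calcium exchangers had 1 rise and 2 falls and annexins 2 rises and 1 fall. The chloroplast calcium sensing receptor gene (evm.TU.BraA03004642) rose from 3085 to 6643, and the gene for SLAC1, an anion channel of guard cells that calcium-dependent kinases activate in Arabidopsis (evm.TU.BraA08002388), rose from 170.5 to 379.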

How the data were processed

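Messenger RNA was sequenced in 6 leaf libraries, 3 per group. The submitters' processing notes name DESeq 1.18.0 and HTSeq 0.6.1, besides the aligners TopHat2 2.0.12 and Bowtie2 2.2.3. Genome build, annotation, strand setting and read totals are not given in the sources used here. Per the file headers and values, the deposited signal columns hold 1 mean read count per group, normalised by the authors for library size, although the labels speak of FPKM. The deposited log2 column is the log2 ratio of these means, and the deposited p-value and adjusted p-value are from the authors' own test. Genes with an adjusted p of 0.05 or more were not analysed here.

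The members, lists and tests were chosen with earlier results of these data known. Fold changes are ratios of the deposited means. Named genes were, in each of 8 roles, the largest rise and fall and the smallest adjusted p in each direction where the higher mean reached 20, plus CIPK2, and others are named as chosen after their values were seen or to complete a shared best hit, a run of neighbours or a family. The rule for the list of other calcium genes searched descriptions for 21 terms, of which calnexin, TPC calcium channel, sodium/calcium exchanger, hyperosmolality-gated channel, MID1-complementing activity, AKT1 and sodium/hydrogen exchanger 7 matched no listed gene. None of the 13225 identifiers matched the reference gene table, so no coordinates or sequences are given.

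Group means are built from whole reads of 3 libraries, each scaled by its size factor, so the lowest means equal 1 scaled read. This gave size factors of 0.926 to 1.01 (autotetraploid) and 0.917 to 1.12 (doubled haploid), and library reads for means under 1000 that had exactly 1 solution, found by searching every combination within the rounding. All 3385 autotetraploid and 3280 doubled haploid values under 100 had exactly 1. Above 100 most autotetraploid values had several and were left out. As a control, 300 values per range were searched again with the step of 1 scaled read moved. Under 100, a solution was still found for 2.67% of autotetraploid and 1.33% of doubled haploid values. Between 100 and 300 it was found for 34.7% and 6.0%. For doubled haploid values it was 25.3% at 300 to 500 and 64.0% at 500 to 1000. Library values are therefore less certain at higher means. Libraries A, B and C, in which order values are given, are named by falling size factor and carry no replicate number. The spread of log2(normalised count + 1) was fitted with limma 3.58.1 (R 4.3.3, intensity trend, Benjamini-Hochberg) over the 2590 genes with both means under 100. P-values measure only the spread between these samples, and counting intervals (95%, exact) cover counting error only. DESeq2 and edgeR were not run, since most genes have no count per library. The alternatives were a stricter p, a minimum mean, 1 gene per hit, Arabidopsis hits, a narrower rule, no A01 genes and, for limma, other pseudocounts, scaling, filter, trend and left-out libraries. The steps were run on simulated data, but recovery of library values above 100 was not tested there. Computation used Python 3.11.15 with matplotlib 3.10.9, SciPy 1.17.1, NumPy 2.4.6 and pandas 2.3.3.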

Additional observations from a re-analysis of the deposited data

How the results depend on the processing

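Of 40 values of the lists recomputed in subsets of genes, 36 stayed within 1.5 times the value reported. Only the 6 medians among them could change direction, and none did. The others are counts in subsets that keep most of the genes, so their closeness says little about stability. The median log2 change of the calcium signalling genes stayed between -0.88 and -0.55. With 1 gene per protein hit, 44 members fell and 6 rose at least 2-fold, and 14 of the other calcium genes rose; with a mean of at least 100, 7 members rose at least 2-fold. These subsets hold fewer genes by construction. With limma, 18 falls and 8 rises were called under each of 11 other settings, leaving out each library included (18 to 18 and 8 to 8); where a group had 2 libraries left, its spread was pooled with the other group. Since limma called 100% of the 2590 genes, all chosen by the authors' test, these counts say nothing about stability. For 6 genes named by the rule, fold changes from library values kept their direction. Those values were worked back from the same group means, so a change of direction was hardly possible. No member was listed at 0, so the floor for such genes was not needed. No paired analysis was possible because the deposited columns are group means and the recovered libraries carry no replicate number. The table's group means leave no spread between libraries for genes with many reads, among them the largest falls.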
